A study of Mus musculus with 6 samples.

Results

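The nuclear genes of respiratory complexes II to V were followed in injured mouse liver with and without the transcription factor IRF8 in hepatocytes. They were taken by name among protein-coding genes: the 4 succinate dehydrogenase genes, every gene whose symbol begins with Uqcr or Atp5, Cyc1, and every gene whose symbol begins with Cox4, Cox5, Cox6, Cox7 or Cox8. The rule found 49 of the 54532 genes in the table, 4 of complex II, 9 of complex III, 18 of complex IV and 18 of complex V. Of these, 42 had enough reads to be tested among 13134 genes.

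The libraries are bulk RNA from the ischemic lobe of the liver taken when 12 h of reperfusion had followed 1 h of ischemia, an injury made by clamping and then restoring the blood supply. IRF8-cKO mice, C57BL/6 animals deficient for Irf8 in hepatocytes, gave the libraries IRF8-cKO-71, IRF8-cKO-88 plus IRF8-cKO-106. Wild-type C57BL/6 mice (WT) given the same injury gave WT-14, WT-44 plus WT-77, and the values of single libraries are listed in these orders. The labels name neither the Cre driver nor the age of the animals, leave unsaid whether each number is a separate animal, and include no uninjured liver. All p-values therefore measure the spread between these samples, and every level is one in injured tissue.

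The respiratory chain sits in the inner mitochondrial membrane. Complex II oxidises succinate, complex III passes electrons from ubiquinol to cytochrome c, and complex IV hands them to oxygen. The proton gradient that complexes III and IV help to build drives complex V, the ATP synthase. Complex II is made wholly from nuclear genes, whereas complexes III, IV and V combine nuclear-encoded subunits with partners translated inside the mitochondrion. Hepatocytes are rich in mitochondria, and ischemia followed by reperfusion is known for stopping and restarting this chain.

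Promoters of 4 subunit genes are printed because they pair genes whose log2 fold changes were among the lowest with genes whose values lay near or above 0. Uqcr11 and Cox8a encode small subunits of complexes III and IV, Sdhd encodes a membrane anchor of complex II, and Atp5b encodes the catalytic beta subunit of complex V. Each sequence is RefSeq's in build GRCm38.p6, runs 5′ to 3′ on the gene's own strand, and covers 250 bases before to 50 bases after the annotated start. Uqcr11 is at chr10:80406772-80407071 on the minus strand, Cox8a at chr19:7217567-7217866 on the minus strand, Sdhd at chr9:50603800-50604099 on the minus strand, and Atp5b at chr10:128083057-128083356 on the plus strand. Capitals mark matches to the motifs described next.
Uqcr11: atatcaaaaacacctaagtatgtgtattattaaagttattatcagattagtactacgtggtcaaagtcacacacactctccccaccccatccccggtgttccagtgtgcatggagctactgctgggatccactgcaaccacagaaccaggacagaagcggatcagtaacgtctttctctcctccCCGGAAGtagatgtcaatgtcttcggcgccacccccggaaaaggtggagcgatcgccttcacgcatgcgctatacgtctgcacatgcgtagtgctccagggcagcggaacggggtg
Cox8a: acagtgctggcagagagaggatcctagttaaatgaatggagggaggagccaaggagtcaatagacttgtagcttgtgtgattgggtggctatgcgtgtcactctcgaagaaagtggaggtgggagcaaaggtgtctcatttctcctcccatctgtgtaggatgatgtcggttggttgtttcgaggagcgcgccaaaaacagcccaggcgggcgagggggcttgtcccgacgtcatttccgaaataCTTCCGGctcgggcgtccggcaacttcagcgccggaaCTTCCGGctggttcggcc
Sdhd: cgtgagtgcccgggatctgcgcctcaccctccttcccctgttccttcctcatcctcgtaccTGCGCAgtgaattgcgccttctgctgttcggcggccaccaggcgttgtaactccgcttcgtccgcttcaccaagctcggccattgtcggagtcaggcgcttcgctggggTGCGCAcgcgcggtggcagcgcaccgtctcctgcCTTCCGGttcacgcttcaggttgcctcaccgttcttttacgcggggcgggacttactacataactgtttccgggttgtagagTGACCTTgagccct
Atp5b: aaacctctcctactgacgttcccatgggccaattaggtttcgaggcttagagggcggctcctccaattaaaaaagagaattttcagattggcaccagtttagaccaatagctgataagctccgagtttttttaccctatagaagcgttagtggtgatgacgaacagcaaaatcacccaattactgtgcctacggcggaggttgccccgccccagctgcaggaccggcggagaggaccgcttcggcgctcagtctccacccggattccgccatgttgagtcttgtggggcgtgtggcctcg

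The motifs searched on both strands were TGCGCA for NRF1, CCGGAAG or its reverse complement CTTCCGG for GABP, AAGATGGC or GCCATCTT for YY1, and AAGGTCA or TGACCTT for the estrogen-related receptor alpha (ERRA). No match overlapped another in the 4 promoters printed. RefSeq promoters were matched by symbol for 35 of the 49 genes, 32 of them tested. The GABP letters were in 11 of these 32 promoters (34.4%), against 18.2% of the 9744 promoters of all tested genes with an entry. The NRF1 letters were in 8 of the 32 (25%, against 14.2%), the ERRA letters in 5 (15.6%, against 3.44%) and the YY1 letters in 2 (6.25%, against 4.72%). The printed Uqcr11 and Cox8a promoters hold only GABP letters, Sdhd holds letters of NRF1, GABP and ERRA, and Atp5b holds none of the 4 motifs. Among subunits with a coding sequence of up to 600 bases the GABP letters were in 10 of 24 promoters, the NRF1 letters in 5, the ERRA letters in 5 and the YY1 letters in 1. Among longer ones they were in 1, 3, 0 and 1 of 8 promoters, in the same order of motifs. Shares over all genes were not computed by length class, so these counts have no matched background. These matches describe letters in a fixed window and show no binding. Low log2 fold changes occurred with and without GABP letters. Cox7a1 (-1.16), Cox5b (-0.88), Atp5j2 (-0.75) and Cox7c (-0.74) had no GABP match. Besides Uqcr11 and Cox8a, Atp5e (-0.82) and Cox6a1 (-0.72) had a match. A relation of the letters to log2 fold change was not tested.

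Irf8, the targeted gene, was at 5.67, 6.72 and 4.17 CPM (counts relative to library size, scaled by edgeR's TMM factors) in the 3 IRF8-cKO libraries, against 9.32, 9.50 and 10.3 CPM in the 3 WT libraries. All IRF8-cKO libraries were below all WT libraries, with a log2 fold change of -0.81 (SE 0.33; edgeR's quasi-likelihood test with Benjamini-Hochberg adjustment, adjusted p = 0.174). The counts are per gene, so the deleted exons were not checked on their own, and liver also holds Irf8-expressing cells outside the deletion. Total counts were 16385964 to 16805830 per IRF8-cKO library and 14758237 to 16010064 per WT library. The TMM factors stood apart in IRF8-cKO-106 (1.32) and WT-44 (0.786), against 0.942 to 1.07 in the other libraries. Hepatocyte markers were abundant in every library, with summed levels of 61061 to 73656 CPM in IRF8-cKO and 76664 to 115281 CPM in WT livers.

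None of the 42 tested subunit genes passed the threshold of 0.05 in edgeR's quasi-likelihood test with Benjamini-Hochberg adjustment over the 13134 genes, where 1.39% of all genes passed (0.937% lower and 0.449% higher in IRF8-cKO). DESeq2 called 2 of them lower in IRF8-cKO, Uqcr11 and Uqcrq, where that tool called 10.8% of all genes, 6.17% lower and 4.67% higher. Without the low-count filter edgeR called the same 2, where 3.76% of all genes were called lower; limma-voom called 0. At an unadjusted p under 0.05 the edgeR test had 7 of the 42 lower and 0 higher, beside 12.0% lower and 12.1% higher among all genes. Log2 fold changes were negative for 36 of the 42, against 48.5% of all genes, and their median was -0.43, against 0.03 for all genes. For 8 of the 42 (19.0%) the groups had separate ranges of CPM, all with IRF8-cKO lower; among all genes 28.9% had separate ranges, 14.5% with IRF8-cKO lower and 14.4% with it higher. In bulk tissue, fewer cells of a type and less RNA per cell cannot be told apart.

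**Figure D1:**
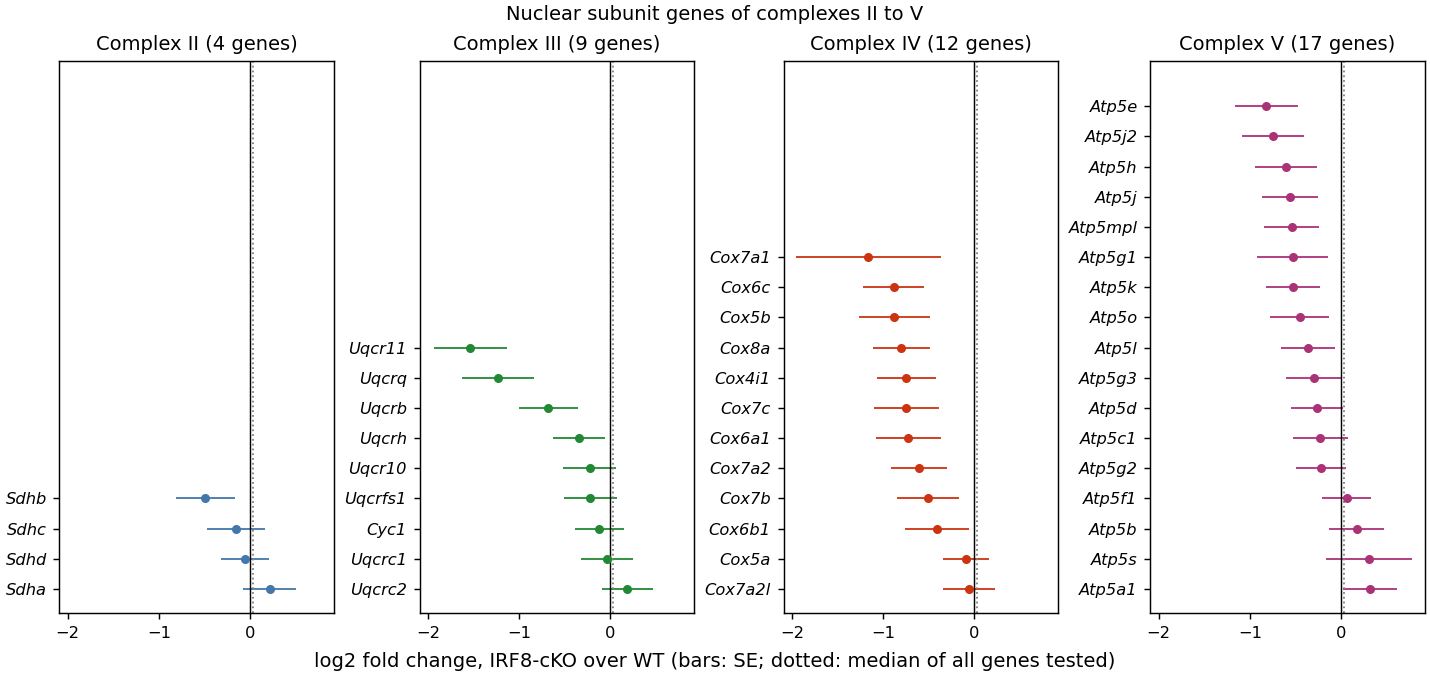
Log2 fold change of each tested subunit gene, IRF8-cKO over WT, with bars of 1 SE, grouped by complex and ordered by value. Colours mark the complex, and the dotted line is the median of all genes tested. The 12 points of complex IV all lie below 0, and Uqcr11 at -1.53 is the lowest of all 42.

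The share of negative values differed among the complexes. Complex IV had 12 of 12 tested genes below 0 with a median log2 fold change of -0.73, complex V 13 of 17 with -0.36, complex III 8 of 9 with -0.23 and complex II 3 of 4 with -0.10. The complexes also differ in coding length, and every tested gene of complex IV has at most 507 coding bases. Over all 4 complexes, 30 of 31 tested genes of up to 600 coding bases were negative, against 6 of 11 longer ones. The part of coding length in the difference among complexes was not tested. The 8 genes with groups that did not overlap were Uqcr11, Uqcrq and Uqcrh of complex III and Cox6c, Cox8a, Cox4i1, Cox7c and Cox7a2 of complex IV. Complexes II and V had none. The 6 positive values belonged to Sdha, Uqcrc2, Atp5f1, Atp5b, Atp5s and Atp5a1.

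In complex II, the flavoprotein Sdha (chr13:74322254-74350280 in the table's mm10 coordinates), which oxidises succinate, was at 255, 174 and 190 CPM in the IRF8-cKO libraries and at 212, 149 and 172 CPM in the WT libraries. The groups overlapped, and WT-44 was the lowest library; the log2 fold change was 0.22 (SE 0.29; edgeR adjusted p = 0.680 by Benjamini-Hochberg). Sdhb, the iron-sulphur subunit that passes the electrons on, was at 138, 108 and 93.6 CPM in the IRF8-cKO libraries and at 157, 214 and 106.4 CPM in the WT libraries. Here WT-44 was the highest library and the groups again overlapped, with a log2 fold change of -0.49 (SE 0.32; edgeR adjusted p = 0.364 by Benjamini-Hochberg).

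The membrane anchors Sdhc and Sdhd carry the heme of complex II and, with Sdhb, form its ubiquinone site. Sdhc was at 150, 96.1 and 90.5 CPM in the IRF8-cKO libraries and 116, 162 and 96.1 CPM in the WT libraries. Sdhd was at 137, 146 and 114 CPM in the IRF8-cKO libraries and 145, 123 and 146 CPM in the WT libraries. Both overlapped between groups, with log2 fold changes of -0.15 and -0.06. Per kilobase of the gene length in the deposited table, Sdhd had the highest level of the complex, 107 CPM per kilobase in IRF8-cKO and 112 in WT livers, and Sdhc the lowest, 34.5 and 38.3.

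In complex III the lowest values belonged to 2 small subunits. Uqcr11 (ENSMUSG00000020163, chr10:80402997-80406830), the smallest subunit, whose promoter with a GABP match is printed above, was at 80.5, 53.2 and 43.3 CPM in the IRF8-cKO libraries, against 128, 270 and 114 CPM in the WT libraries. Every IRF8-cKO library was below every WT library, and WT-44 was the highest. The means were 59.0 ± 19.3 CPM in IRF8-cKO and 171 ± 86.3 CPM in WT livers (SD, n = 3 each). This gave a log2 fold change of -1.53 (SE 0.40; edgeR's quasi-likelihood test with Benjamini-Hochberg adjustment, adjusted p = 0.0753), the smallest adjusted p among the 42 genes. DESeq2 gave an adjusted p of 0.0063, and without WT-44 the edgeR log2 fold change was -1.04.

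Uqcrq (ENSMUSG00000044894, chr11:53427922-53430831), a small subunit that contacts cytochrome b, was at 293, 210 and 145 CPM in the IRF8-cKO libraries, against 329, 734 and 457 CPM in the WT libraries. The groups did not overlap, although IRF8-cKO-71 and WT-14 lay close together. Its log2 fold change was -1.23 (SE 0.39; edgeR adjusted p = 0.108 by Benjamini-Hochberg), and DESeq2 gave an adjusted p of 0.028. Uqcrh, the hinge protein that helps cytochrome c1 bind cytochrome c, was at 163, 162 and 126 CPM in the IRF8-cKO libraries, against 166, 237 and 167 CPM in the WT libraries. Its groups did not overlap, but the gap between IRF8-cKO-71 and WT-14 was small and the log2 fold change only -0.34 (SE 0.28; edgeR adjusted p = 0.482 by Benjamini-Hochberg).

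The catalytic and core subunits of complex III lay nearer to 0. Cytochrome c1 (Cyc1), the Rieske protein Uqcrfs1 and the core protein Uqcrc1 had log2 fold changes of -0.12, -0.22 and -0.04. The other core protein, Uqcrc2, was at 157, 135 and 125 CPM in the IRF8-cKO libraries and 155, 108 and 102 CPM in the WT libraries. The groups overlapped only through WT-14, and the log2 fold change was 0.19 (SE 0.28; edgeR adjusted p = 0.714 by Benjamini-Hochberg). Among the remaining small subunits, Uqcrb had -0.68 and Uqcr10 -0.23. Uqcr10 was at 119, 118 and 86.3 CPM in the IRF8-cKO libraries and 122, 158 and 97.8 CPM in the WT libraries, which overlapped.

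**Figure D2:**
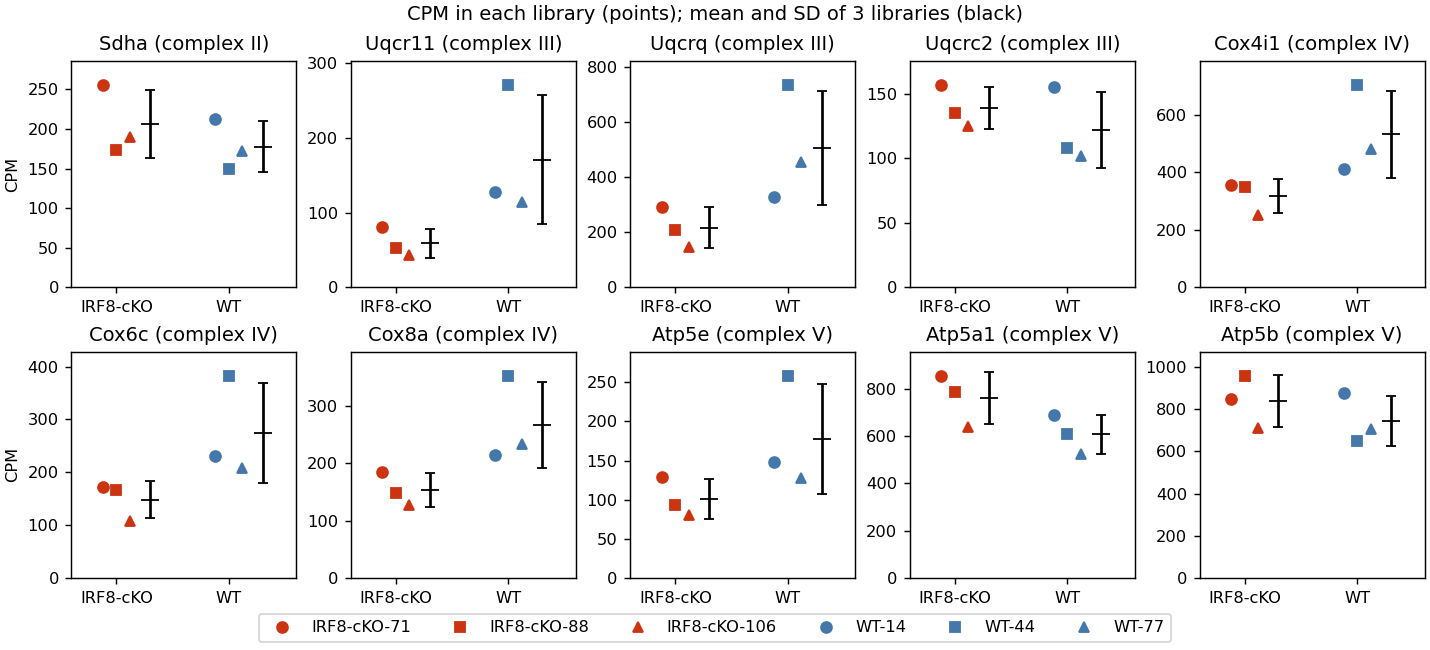
CPM of 10 subunit genes in each library; colours mark the group, marker shapes the library, and black bars the mean and SD of 3 libraries, on axes that start at 0. IRF8-cKO points lie below all WT points for Uqcr11, Uqcrq, Cox4i1, Cox6c and Cox8a, and WT-44 is the highest WT point of those genes but the lowest for Sdha and Atp5b.

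In complex IV the mitochondrion makes the catalytic core, and the nuclear genes make the smaller subunits around it. Cox6c (ENSMUSG00000014313, chr15:35925886-35938246), a membrane-spanning subunit, was at 171, 166 and 107 CPM in the IRF8-cKO libraries, against 231, 382 and 209 CPM in the WT libraries. Cox8a (ENSMUSG00000035885, chr19:7215158-7217616), the common isoform of the small membrane-spanning subunit 8, was at 185, 148 and 127 CPM in the IRF8-cKO libraries, against 214, 352 and 234 CPM in the WT libraries. For both, the groups did not overlap and WT-44 was the highest library. The log2 fold changes were -0.88 (SE 0.34; edgeR adjusted p = 0.156 by Benjamini-Hochberg) for Cox6c and -0.80 (SE 0.31; adjusted p = 0.161) for Cox8a. The Cox8a promoter printed above holds 2 GABP matches.

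Cox4i1, the common isoform of the largest nuclear-encoded subunit of complex IV, was at 355, 348 and 250 CPM in the IRF8-cKO libraries, against 413, 702 and 483 CPM in the WT libraries. Cox7c was at 222, 193 and 136 CPM in the IRF8-cKO libraries, against 239, 457 and 227 CPM in the WT libraries, and Cox7a2, the liver isoform of subunit 7a, was at 126, 113 and 75.1 CPM in the IRF8-cKO libraries, against 143, 201 and 136 CPM in the WT libraries. None of the 3 genes overlapped between groups, and IRF8-cKO-106 was the lowest library for each. Their log2 fold changes were -0.75, -0.74 and -0.61, with edgeR adjusted p-values of 0.196, 0.230 and 0.247 by Benjamini-Hochberg.

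Cox6a1, the liver isoform of subunit 6a, had the highest level per kilobase of complex IV, 372 CPM per kilobase in IRF8-cKO and 615 in WT livers. It was at 326, 263 and 195 CPM in the IRF8-cKO libraries and 316, 623 and 356 CPM in the WT libraries. The groups overlapped through IRF8-cKO-71 and WT-14, with a log2 fold change of -0.72 (SE 0.36; edgeR adjusted p = 0.238 by Benjamini-Hochberg). Cox5b, the zinc-binding subunit, had -0.88, Cox7b -0.51 and Cox6b1 -0.41. Cox5a, which with Cox5b lies on the matrix side, had -0.09, and Cox7a2l, which is known for joining complexes III and IV into a supercomplex, had -0.06.

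Of the tissue-specific isoforms of complex IV, only Cox7a1, the heart and muscle form of subunit 7a, passed the low-count filter. It was at 0.308, 0.432 and 0.649 CPM in the IRF8-cKO libraries and 1.35, 1.73 and 0.133 CPM in the WT libraries. WT-77 was the lowest library and the other WT libraries were the highest, so the groups overlapped (log2 fold change -1.16, SE 0.79; edgeR adjusted p = 0.384 by Benjamini-Hochberg). Set against the liver form Cox7a2, per kilobase and within each library, the log2 ratio was -7.04 ± 0.93 in IRF8-cKO and -7.04 ± 1.85 in WT livers (SD, n = 3 each; two-sided exact permutation p = 0.9, where 0.1 is the smallest that 3 against 3 allows).

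Cox4i2, the lung isoform of subunit 4, had 0 reads in the IRF8-cKO libraries and 1, 2 and 9 reads in the WT libraries. Pooled over the libraries, the WT level was 0.279 CPM, 5.03-fold the 0.0555 CPM that a limit of 3 reads allows in IRF8-cKO. The error of the WT count is not in this ratio, and 9 of the 12 WT reads came from WT-77. Cox6b2, a testis isoform, had 12 reads in IRF8-cKO and 15 in WT libraries. Cox8b and Cox6a2, muscle isoforms, had 4 and 1 reads, all in IRF8-cKO-106. Cox7b2, Cox8c and a second identifier named Atp5o (ENSMUSG00000116933) had 0 reads, which allows up to 0.0309 CPM over the 6 libraries. These 7 genes were not tested.

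In complex V, the F1 head makes ATP, and the proton channel is in the membrane-bound Fo sector. Atp5a1, the alpha subunit of the head, had the highest level per kilobase of complex V over the 6 libraries, 242 CPM per kilobase in IRF8-cKO and 194 in WT livers; in WT livers alone Atp5g3 was higher, at 205. It was at 853, 784 and 638 CPM in the IRF8-cKO libraries and 687, 609 and 525 CPM in the WT libraries. The groups overlapped through IRF8-cKO-106, with a log2 fold change of 0.32 (SE 0.30; edgeR adjusted p = 0.525 by Benjamini-Hochberg). Atp5b, the catalytic beta subunit, whose promoter above holds no match, was at 849, 956 and 710 CPM in the IRF8-cKO libraries and 874, 651 and 705 CPM in the WT libraries. These overlapped as well, and the log2 fold change was 0.17 (SE 0.30; edgeR adjusted p = 0.752 by Benjamini-Hochberg).

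The central stalk turns within the head. Its epsilon subunit Atp5e (ENSMUSG00000016252, chr2:174461072-174464105) had the lowest value of complex V, with 129, 93.8 and 80.1 CPM in the IRF8-cKO libraries and 148, 258 and 127 CPM in the WT libraries. The groups overlapped only by the small difference between IRF8-cKO-71 and WT-77, and the log2 fold change was -0.82 (SE 0.34; edgeR adjusted p = 0.186 by Benjamini-Hochberg). The gamma subunit Atp5c1 and the delta subunit Atp5d had -0.23 and -0.26. The log2 fold changes of the head and the central stalk ran from -0.82 to 0.32.

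Atp5j2, the membrane subunit f, was at 138, 108 and 89.0 CPM in the IRF8-cKO libraries and 162, 269 and 131 CPM in the WT libraries. IRF8-cKO-71 lay above WT-77, so the groups overlapped, and the log2 fold change was -0.75 (SE 0.34; edgeR adjusted p = 0.209 by Benjamini-Hochberg). The other small membrane subunits Atp5k (subunit e), Atp5l (subunit g) and Atp5mpl had -0.53, -0.36 and -0.54. In the peripheral stalk, which holds the head still, Atp5h, Atp5j and Atp5o had -0.60, -0.56 and -0.45, while Atp5f1, the b subunit, had 0.06. Atp5s, known as factor B and not a core subunit, was at 9.99, 3.45 and 3.61 CPM in the IRF8-cKO libraries and 4.54, 3.89 and 5.32 CPM in the WT libraries. Its log2 fold change of 0.31 (SE 0.47) rested on IRF8-cKO-71 and was -0.36 without that library.

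Atp5g1, Atp5g2 and Atp5g3 encode the same mature subunit c of the proton-conducting ring. Atp5g3 was at 411, 390 and 289 CPM in the IRF8-cKO libraries and 419, 544 and 378 CPM in the WT libraries. Atp5g1 was at 126, 116 and 66.9 CPM in the IRF8-cKO libraries and 127, 230 and 89.2 CPM in the WT libraries. Atp5g2 was at 120, 94.3 and 78.9 CPM in the IRF8-cKO libraries and 94.3, 127 and 120 CPM in the WT libraries. All 3 genes overlapped between groups. Within each library, Atp5g3 made up 67.9 ± 1.66% of their summed counts per kilobase in IRF8-cKO and 67.7 ± 2.14% in WT livers, Atp5g2 23.7 ± 1.73% and 22.7 ± 3.91%, and Atp5g1 8.39 ± 1.17% and 9.65 ± 2.84% (SD, n = 3 each). Two-sided exact permutation tests gave p = 0.9 for Atp5g3, 0.8 for Atp5g2 and 0.5 for Atp5g1, all 0.9 after adjustment over the 4 isoform comparisons. The length used for Atp5g1 is 4912 bases of annotated exons, against a coding sequence of 408 bases, and that length lowers its share per kilobase; of the summed counts without length it held 18.0 ± 2.24% in IRF8-cKO and 20.2 ± 5.16% in WT livers.

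Log2 fold changes of the subunit genes ran with the length of their coding sequence. Across the 42 genes, the Spearman correlation of log2 fold change with coding length was 0.73, against 0.16 across all 11955 tested protein-coding genes with a coding length; the points share the same 6 libraries and are not independent. All 15 genes with at most 300 coding bases had negative values, with a median of -0.74. From there to 600 bases, 15 of 16 were negative (median -0.33), from 600 to 1200 bases 5 of 6 (median -0.22), and above 1200 bases 1 of 5 (median 0.19). Medians of all genes in the same classes ran in the same direction, at -0.50, -0.22, -0.01 and 0.13. After correction of every library for its trend with the deposited gene length, the median over the subunit genes was -0.22 instead of -0.43. The correlation with coding length was then 0.58. Deposited gene length is a different measure from coding length, and its Spearman correlation with the uncorrected log2 fold changes of the 42 genes was 0.43. After the correction, all genes of at most 300 coding bases still had a median of -0.28, and the subunit genes among them -0.39.

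**Figure D3:**
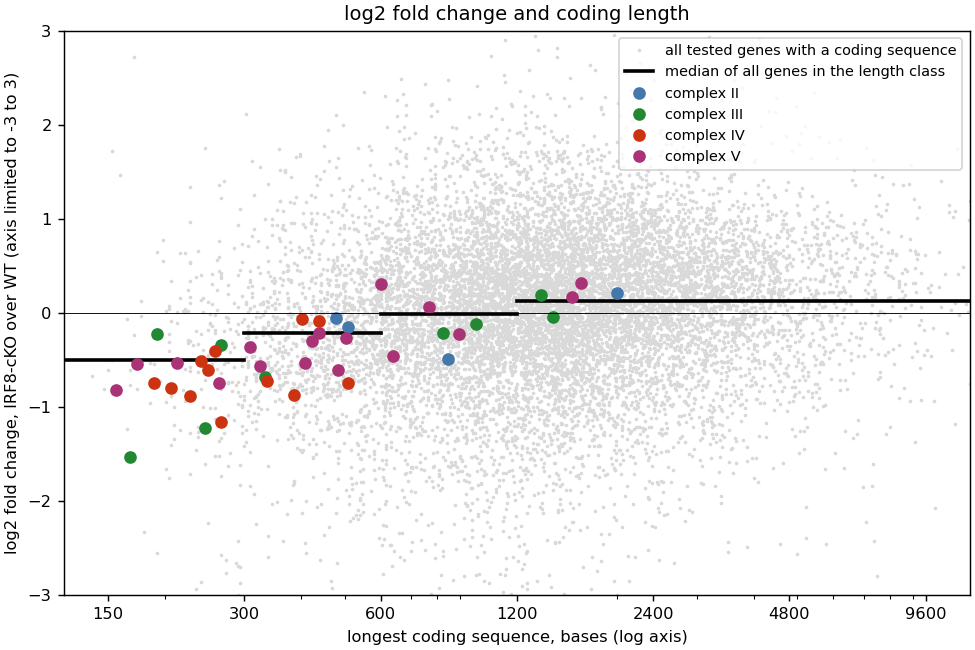
Log2 fold change, IRF8-cKO over WT, against the longest coding sequence in bases on a log axis; coloured points are subunit genes by complex, grey points all other tested protein-coding genes, and black lines the median of all genes in each length class. The vertical axis is limited to -3 to 3, which leaves out 88 genes; subunit genes of at most 300 bases all lie below 0, and 4 of the 5 above 1200 bases lie above it.

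The contrast between short and long subunit genes also differed among libraries of 1 group. Relative to the 6-library mean of each gene, the 31 genes of up to 600 coding bases averaged 0.18, 0.21 and 0.33 log2 units below the 11 longer ones in the IRF8-cKO libraries. In WT-14 they averaged 0.03 below, and in WT-44 and WT-77 they averaged 0.54 and 0.20 above. The same gap over all protein-coding genes was 0.02, -0.19 and -0.33 in the IRF8-cKO libraries and 0.14, 0.31 and 0.06 in the WT libraries. It thus had its highest value in WT-44 and its lowest in IRF8-cKO-106 over all genes too. Summed over the genes, the short subunits had 1.36, 1.27 and 1.17 times the CPM of the long ones in the IRF8-cKO libraries and 1.54, 2.62 and 1.95 times in the WT libraries. The part of library composition or RNA quality in this contrast was not tested.

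All 49 genes together summed to 8162, 7271 and 5718 CPM in the IRF8-cKO libraries and 8252, 11059 and 7424 CPM in the WT libraries, or 7051 ± 1237 and 8912 ± 1905 CPM (SD, n = 3 each). The groups overlapped. WT-44 was the highest library and IRF8-cKO-106 the lowest, and these are the libraries with the extreme TMM factors. By complex, the summed level was 564 ± 102 CPM in IRF8-cKO and 599 ± 69.3 CPM in WT livers for complex II, 1294 ± 249 and 1839 ± 461 CPM for complex III, 1679 ± 339 and 2640 ± 827 CPM for complex IV, and 3513 ± 566 and 3834 ± 613 CPM for complex V. As shares of unscaled library totals, the subunit genes took 0.788%, 0.719% and 0.752% of counts in the IRF8-cKO libraries and 0.884%, 0.868% and 0.698% in the WT libraries. With library totals as the only scaling, the median log2 fold change was -0.20, with 30 of the 42 genes negative, while that of all genes moved to 0.25, a difference of -0.45, against -0.46 with TMM.

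**Figure D4:**
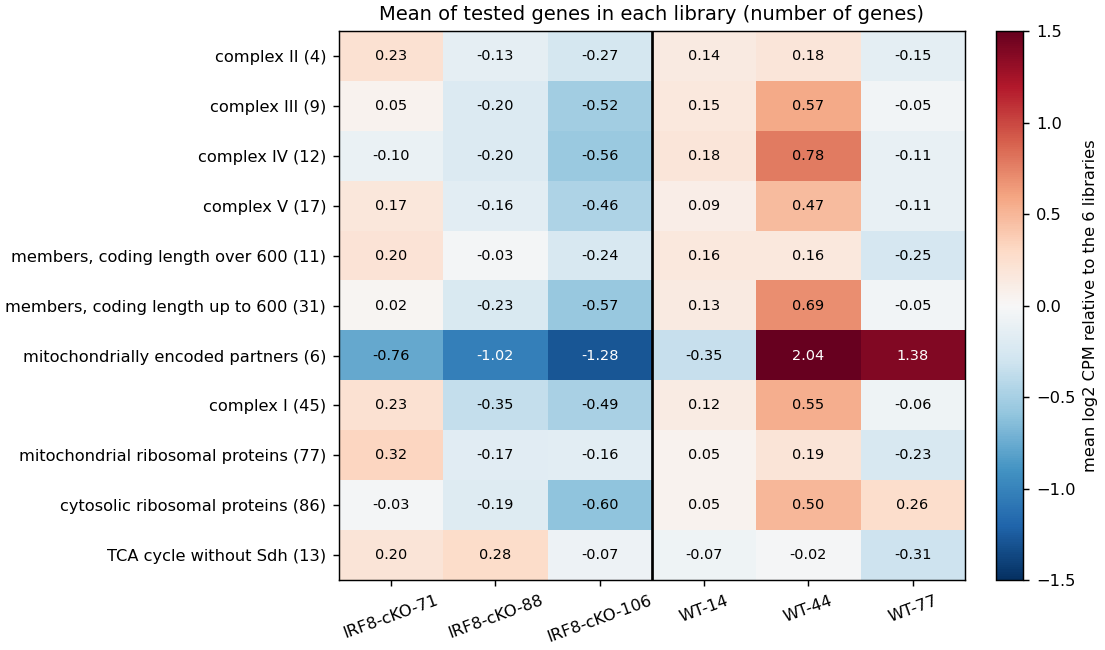
Mean log2 CPM of the tested genes of each complex and companion list in each library, centred on each gene's mean over all 6; IRF8-cKO libraries are left of the black line and WT libraries right of it, the number of genes stands in brackets, and colours saturate at -1.5 and 1.5. Complex IV ranges from -0.56 in IRF8-cKO-106 to 0.78 in WT-44, and the mitochondrially encoded partners from -1.28 to 2.04 in the same libraries.

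The 6 mitochondrially encoded genes that complete complexes III to V were also read. All 6 had negative log2 fold changes, with a median of -1.75. Beside 0.937% of all genes called lower, 1 of the 6 passed the edgeR test. It was mt-Atp8, a small subunit of complex V, at 0.432, 0.062 and 0.324 CPM in the IRF8-cKO libraries and 1.96, 9.15 and 17.2 CPM in the WT libraries (log2 fold change -5.06; edgeR adjusted p = 0.041 by Benjamini-Hochberg); it shares bases with mt-Atp6. The catalytic subunit mt-Co1 was at 25837, 27143 and 18525 CPM in the IRF8-cKO libraries and 27765, 93418 and 55221 CPM in the WT libraries. WT-14 lay close to the IRF8-cKO libraries and WT-44 far above them. The whole mitochondrial genome took 5.99%, 7.14% and 6.01% of counts in the IRF8-cKO libraries and 7.19%, 20.2% and 14.5% in the WT libraries. None of the 6 was called without IRF8-cKO-71, IRF8-cKO-106, WT-44 or WT-77, with the length correction or with limma-voom. Of the 6, 3 were called without WT-14, where 107 of 13614 genes were called lower. All 6 were called lower with DESeq2, beside 6.17% of all genes, and with edgeR without the low-count filter, beside 3.76%. The median was -1.14 without WT-44. With all genes of the mitochondrial genome removed, the median over the nuclear subunit genes was still -0.43.

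Genes that build the complexes had positive medians where the subunits had negative ones, and none of them passed the edgeR test. At an unadjusted p under 0.05, 7 of the 34 tested were higher and 3 lower, beside 12.1% and 12.0% of all genes. DESeq2 called 4 of the 34, 2 higher and 2 lower, beside 10.8% of all genes. Without the low-count filter edgeR called 3 assembly factors of complex IV and 1 of complex III, beside 1723 of 24095 genes. It called 2 of complex IV without IRF8-cKO-88, beside 1205 of 13652 genes. Without WT-14 it called 2 of complex IV, beside 139 of 13614 genes. The 4 assembly factors of complex II had a median log2 fold change of 0.49, but -0.31 without IRF8-cKO-71, the 6 of complex III 0.28, the 19 tested of complex IV 0.20 and the 5 of complex V 0.46. The lowest p-values belonged to Sdhaf2, which helps attach flavin to Sdha (0.78, edgeR adjusted p = 0.139 by Benjamini-Hochberg), Uqcc2 (-1.10, 0.102), Taco1, a translational activator of mt-Co1 (1.97, 0.067), and Atpaf1, a chaperone of the F1 head (0.80, 0.203). Taco1 was at 10.9, 7.90 and 14.6 CPM in the IRF8-cKO libraries, against 4.84, 1.55 and 2.06 CPM in the WT libraries, and the groups did not overlap. Cycs, the somatic cytochrome c, was at 156, 182 and 152 CPM in the IRF8-cKO libraries and 230, 290 and 129 CPM in the WT libraries, which overlapped.

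**Figure D5:**
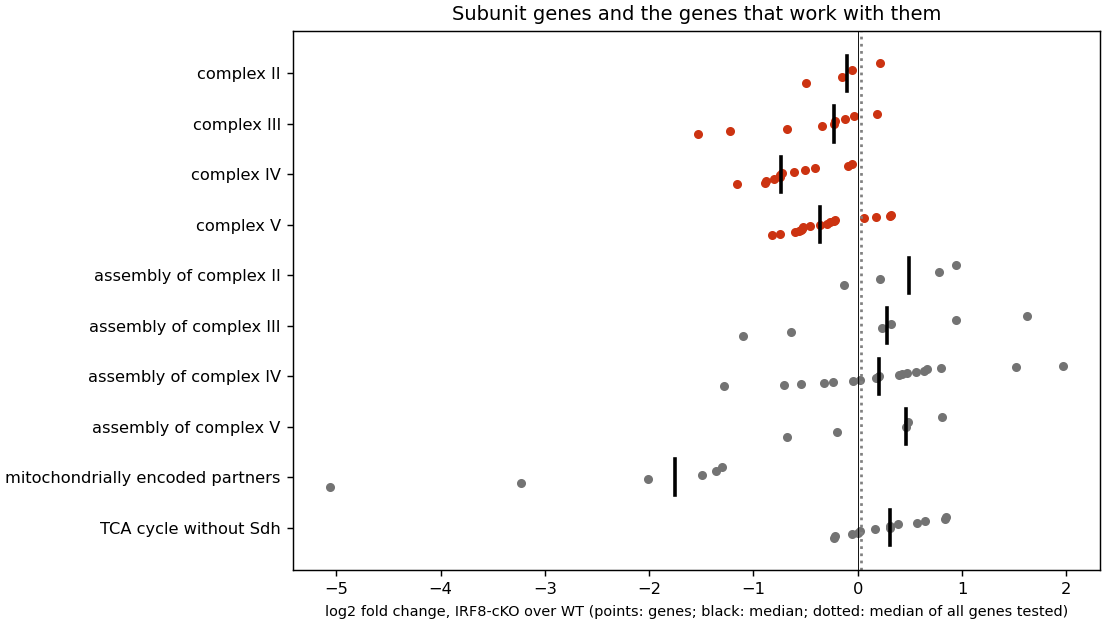
Log2 fold change of single genes (points), IRF8-cKO over WT, in the 4 complexes (red) and in lists of genes that work with them (grey); black lines are medians and the dotted line the median of all genes tested. Medians are -0.10 to -0.73 for the subunits, 0.20 to 0.49 for the assembly factors and -1.75 for the mitochondrially encoded partners.

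The tricarboxylic acid cycle without succinate dehydrogenase had a median of 0.31 over 13 genes, 3 of them negative. These genes are long, with 1014 to 3102 coding bases. Medians of all genes were -0.01 from 600 to 1200 coding bases and 0.13 above. For the cycle, edgeR and DESeq2 called 0, and 3 were higher at an unadjusted p under 0.05. Its lowest p belonged to citrate synthase, Cs, at 122, 186 and 125 CPM in the IRF8-cKO libraries, against 78.9, 83.7 and 79.3 CPM in the WT libraries (log2 fold change 0.84; edgeR adjusted p = 0.118 by Benjamini-Hochberg). The 12 regulators of mitochondrial biogenesis had a median of 0.08 and 0 calls by edgeR, with the lowest p for Tfb1m, an rRNA methyltransferase of mitochondria (1.90; edgeR adjusted p = 0.053 by Benjamini-Hochberg). Unadjusted, 2 of the 12 were higher and 1 lower; DESeq2 called Tfb1m alone, edgeR without the low-count filter called 2, and edgeR without IRF8-cKO-88 called 1. Of complex I, 37 of 45 tested Nduf genes were negative, with a median of -0.51 and 0 calls by edgeR. This list was taken by symbol, so it holds Ndufaf assembly factors and Ndufa4 beside the subunits of complex I. The 86 tested cytosolic ribosomal protein genes, which are also short, had a median of -0.52 and the 77 tested mitochondrial ribosomal ones 0.04, with 0 calls in each by edgeR. Unadjusted, 12 of the 45 Nduf genes and 23 of the 86 cytosolic ribosomal genes were lower and 0 higher, while 5 of the 77 mitochondrial ribosomal genes were lower and 3 higher, beside 12.0% lower and 12.1% higher among all genes. DESeq2 called 4 of the 45 Nduf genes and 4 of the 86 cytosolic ribosomal genes, all lower. Of the 77 mitochondrial ribosomal genes it called 1 higher and 1 lower. Among all genes DESeq2 called 6.17% lower and 4.67% higher. No difference between these lists was tested.

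Markers of other cells differed between the groups beside these values. All 7 tested neutrophil markers had lower CPM in every IRF8-cKO library. Of the 9 in the list, 5 were called lower by edgeR, beside 0.937% of all genes. Summed levels of the 9 were 21.2 to 46.0 CPM in IRF8-cKO and 171 to 215 CPM in WT livers. Without WT-77 edgeR called no gene of any list. Without WT-44 it called 0 of all genes lower and 1 higher, so none of these calls of lower markers remained. Of the 5 erythroid markers edgeR called 1 lower, beside the same 0.937% (100.9 to 151 CPM in IRF8-cKO and 216 to 318 CPM in WT livers). The 5 cholangiocyte markers were at 13.1 to 41.1 CPM in IRF8-cKO and 48.4 to 98.5 CPM in WT livers, and the 6 Kupffer cell markers at 71.2 to 200.8 CPM in IRF8-cKO and 47.5 to 60.7 CPM in WT livers, with 0 called in each by edgeR. At an unadjusted p under 0.05 all 5 cholangiocyte markers were lower and 5 of the 6 Kupffer cell markers higher, beside 12.0% lower and 12.1% higher among all genes. DESeq2 called 3 cholangiocyte markers lower and 3 Kupffer cell markers higher, beside 6.17% lower and 4.67% higher among all genes. Endothelial markers were at 84.0 to 113 CPM in IRF8-cKO and 78.7 to 132 CPM in WT livers, and smooth muscle and stellate cell markers at 39.9 to 74.4 CPM in IRF8-cKO and 31.9 to 49.0 CPM in WT livers. EdgeR called 0 in each of these lists. At an unadjusted p under 0.05, Kdr was higher and Lyve1 lower among the endothelial markers, and Lrat was higher among the smooth muscle and stellate cell markers. DESeq2 called Lrat alone, as higher, beside the shares of all genes just given. The 7 hepatocyte markers had a median log2 fold change of -0.51; edgeR called 0 of them, DESeq2 called Ttr lower, and 1 was lower at an unadjusted p under 0.05. Their part in the values of the subunit genes was not tested.

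Counting could also touch single subunit genes. From annotated start to end, introns included, 18 of the 49 overlap another annotated gene and 10 overlap a protein-coding one. Among them are Cox6c with Vps13b, Cox4i1 with Emc8 and Atp5j with Gabpa. Whether their exons overlap was not checked. Without a stated strand setting, reads in a shared exon could not be told apart. The 9 pseudogenes named after subunit genes held 7 to 20 counts in a library, against 111742 to 134647 counts for the subunit genes.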

How the data were processed

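Bulk RNA was sequenced from injured liver lobes, with 3 libraries each for IRF8-cKO and WT. Total RNA went into an NEBNext Ultra kit, per the labels' protocols. The deposited values are raw counts per gene, which the authors did not normalise; alignment and counting tools were HISAT2 2.0.5 and featureCounts 1.5.0-p3 with mm10, per the submitters' processing notes. The deposited gene length, in bases, is another column of the table. For strand, multi-mapping and annotation release, the setting is not given in the sources used here.

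CPM used edgeR's TMM factors, and genes were filtered with filterByExpr (minimum count 10, minimum total 15). The comparison was made in R 4.3.3 with edgeR 4.0.16 as a robust two-sided quasi-likelihood test with group as the only term and Benjamini-Hochberg adjustment over 13134 genes at 0.05. The biological coefficient of variation was 37.1%. SE is of the log2 fold change. Isoform shares were compared by exact permutation (scipy 1.17.1). Coding length is the longest coding sequence per gene in GENCODE M21, without the stop codon. The fit was tested on simulated data.

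The genes and lists were chosen with earlier results of these data known. Values in every library were given for the tested genes with the lowest p in each direction and complex (up to 2), the succinate dehydrogenase genes, the highest level per kilobase, the Atp5g genes and isoform pairs; Uqcrh, Cox4i1, Cox7c, Cox7a2, Atp5b, mt-Co1, Taco1, Cs and Cycs were added after their values were seen. Companion lists name called genes or the lowest p. Alternatives were other scalings, filters, DESeq2 1.42.0, limma-voom 3.58.1, a gene length correction (lowess, span 0.5), removal of mitochondrial genes and each library left out.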

Additional observations from a re-analysis of the deposited data

How the results depend on the processing

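The median log2 fold change of the tested subunit genes stayed negative under every alternative, at -0.16 (without WT-44) to -0.66 (without WT-77) with 1 library left out, -0.27 without IRF8-cKO-106, -0.20 with library totals only and -0.22 with the gene length correction. Subunit genes called were 0 except with DESeq2 (2) and without the low-count filter (2), both times Uqcr11 and Uqcrq (without the filter, adjusted p = 0.000452 and 0.0154, where 3.76% of all genes were called lower). Genes called over all genes, 182 with edgeR, were 1423 with DESeq2, 1723 without the filter, 82 with library totals only, 90 with the length correction, 111 with limma-voom and 0 (without WT-77) to 1205 (without IRF8-cKO-88) with 1 library left out, 1 without WT-44 and 20 without IRF8-cKO-106; the cause was not tested. WT-77, WT-44, IRF8-cKO-106 and IRF8-cKO-88 therefore each decide that count.

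Of 671 comparisons of single subunit genes with their main value, 643 kept direction and side of the threshold, 4 passed it and 24, in 11 genes, changed sign. With the length correction the values were 0.18 for Sdhd, 0.17 for Uqcr10, 0.013 for Uqcrfs1, 0.0087 for Cyc1, 0.050 for Cox5a and 0.21 for Cox7a2l. With library totals only they were 0.072 for Sdhc, 0.13 for Sdhd, 0.091 for Cyc1, 0.16 for Uqcrc1, 0.12 for Cox5a and 0.15 for Cox7a2l. With 1 library left out, values ranged from -0.41 to 0.076 for Sdhc, -0.14 to 0.053 for Sdhd, -0.19 to 0.099 for Uqcrc1, -0.64 to 0.011 for Cox6b1, -0.16 to 0.013 for Cox5a, -0.29 to 0.098 for Cox7a2l, -0.043 to 0.16 for Atp5f1 and -0.36 to 0.56 for Atp5s. The complex II assembly median ranged from -0.31 (without IRF8-cKO-71) to 0.75 (without WT-44). Of 350 values of companion lists, 29 others moved without a change of direction. No paired analysis was possible because no library number occurs in both groups.

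In an alternative chosen after the data were seen, leaving out Atp5a1 and Atp5b gave a log2 ratio of the group means of summed CPM of -0.47, against -0.34 for all 49 genes. With 3 libraries a group, this spread limits the test: SE of the subunit genes was 0.25 to 0.79 on the log2 scale, and levels of genes under the filter rest on few reads. Limits on a count of 0 cover counting error only.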

Other observations

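Several genes whose products belong to the respiratory chain carry symbols outside the name rule, and their values were seen before they were chosen. Higd1a, a hypoxia-inducible protein that associates with complex IV, was at 50.4, 59.8 and 40.8 CPM in the IRF8-cKO libraries, against 116.9, 161 and 87.6 CPM in the WT libraries (log2 fold change -1.27; edgeR's quasi-likelihood test with Benjamini-Hochberg adjustment, adjusted p = 0.065). Atpif1, the inhibitor of ATP hydrolysis by complex V, was at 3.64, 2.34 and 3.24 CPM in the IRF8-cKO libraries, against 7.35, 6.39 and 6.78 CPM in the WT libraries (-1.15; edgeR adjusted p = 0.103 by Benjamini-Hochberg). For both genes every IRF8-cKO library was below every WT library, and neither passed the threshold in edgeR; DESeq2 gave adjusted p-values of 0.0051 for Higd1a and 0.031 for Atpif1.

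Usmg5, a small membrane subunit of complex V, Ndufa4, now counted with complex IV, and Higd2a, an assembly factor, had log2 fold changes of -0.81, -0.62 and -0.68, and their groups did not overlap either. Of all genes, 14.5% had groups that did not overlap and were lower in IRF8-cKO. These 5 genes have coding sequences of 174 to 318 bases, the length at which all genes had negative medians.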
